A study of Mus musculus with 11 samples.

Results

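The genes described here encode 10 enzymes and helpers of sugar chain synthesis in lymph node CD4+ cells: the heparan sulfate sulfotransferase Hs3st3b1, the O-glycan initiators Galnt1, Galnt2, Galnt3, Galnt6 and Galnt10, and the O-glycan extension genes C1galt1, C1galt1c1, St3gal1 and Gcnt1. They were taken by gene symbol from a table of read counts over 55471 Ensembl genes, and all 10 were found. The WT group comprised 5 libraries from C57BL/6 mice, and the GLC group 6 libraries from C57BL/6 mice of genotype Pggt1bfl/flLys-Cre. In the latter, a Cre driver active in macrophages deletes Pggt1b, a subunit gene of the enzyme that attaches geranylgeranyl lipids to proteins. GLC replicate 78 was made from RNA of 2 pooled mice. All cells came from inguinal and axillary nodes, were isolated untouched with a bead kit and were cultured for 2 h with concanavalin A at 1.25 ug/ml, a lectin that activates T cells, so no resting cells were compared. The question was whether transcripts of CD4+ cells differ when macrophages lack Pggt1b. The genes were selected on the same comparison: Hs3st3b1 and Galnt10 ranked 9 and 16 by p among 12404 genes tested for GLC against WT, and the rest act in the same or the next step. Differences between the groups are therefore described for all 10 and support nothing.

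Mucin-type O-glycosylation begins in the Golgi, where polypeptide GalNAc transferases of the Galnt family attach the sugar GalNAc to serine or threonine. C1galt1 adds galactose to form the core 1 structure, and C1galt1c1, also called Cosmc, is the chaperone that it needs to fold. The sialyltransferase St3gal1 caps core 1, while Gcnt1 adds a branch to make core 2, on which selectin ligands of leukocytes are built, so both act on the same acceptor. Heparan sulfate is a different chain, polymerised by the Ext enzymes on proteoglycans and then modified by sulfotransferases, of which Hs3st3b1 adds a rare sulfate at the 3-O position.

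RefSeq promoter windows of build GRCm38.p6, from 250 bases before to 50 bases after the annotated start, were available for 6 of the 10 genes, and 4 are shown. Hs3st3b1, Galnt10 and Gcnt1 were the genes furthest from 0 in the comparison of the groups, and Galnt6 was the most abundant of the 10. The windows lie at chr11:63922235-63922534 on the minus strand for Hs3st3b1, chr11:57645192-57645491 on the plus strand for Galnt10, chr15:100729327-100729626 on the minus strand for Galnt6 and chr19:17372795-17373094 on the minus strand for Gcnt1. Capitals mark matches on either strand to any of 8 motifs, which are named after the sequences.
Hs3st3b1: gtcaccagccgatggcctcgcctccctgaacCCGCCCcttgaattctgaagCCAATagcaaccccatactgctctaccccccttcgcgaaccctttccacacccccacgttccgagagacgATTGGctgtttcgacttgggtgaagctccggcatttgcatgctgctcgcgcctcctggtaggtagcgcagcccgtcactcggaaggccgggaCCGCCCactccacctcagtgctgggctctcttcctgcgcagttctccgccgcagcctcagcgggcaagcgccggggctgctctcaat
Galnt10: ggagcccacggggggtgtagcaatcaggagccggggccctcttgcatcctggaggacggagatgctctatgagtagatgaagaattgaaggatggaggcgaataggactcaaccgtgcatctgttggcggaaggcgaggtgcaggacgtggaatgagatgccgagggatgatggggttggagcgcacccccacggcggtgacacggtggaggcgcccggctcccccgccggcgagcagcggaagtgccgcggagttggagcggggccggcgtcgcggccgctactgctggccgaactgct
Galnt6: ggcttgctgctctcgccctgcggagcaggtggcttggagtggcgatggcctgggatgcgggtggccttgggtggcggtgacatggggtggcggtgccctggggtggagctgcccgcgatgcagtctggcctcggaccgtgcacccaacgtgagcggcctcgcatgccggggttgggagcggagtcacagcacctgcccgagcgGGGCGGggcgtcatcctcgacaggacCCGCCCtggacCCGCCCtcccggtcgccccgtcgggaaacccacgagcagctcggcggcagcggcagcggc
Gcnt1: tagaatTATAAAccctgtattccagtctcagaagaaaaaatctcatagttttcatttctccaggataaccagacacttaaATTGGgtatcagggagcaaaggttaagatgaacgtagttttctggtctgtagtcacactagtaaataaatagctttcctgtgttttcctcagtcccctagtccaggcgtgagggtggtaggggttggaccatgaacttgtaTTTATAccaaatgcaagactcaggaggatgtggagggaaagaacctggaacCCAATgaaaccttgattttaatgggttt
The motifs searched were the GC box GGGCGG, the CCAAT box CCAAT, the TATA box TATAAA, the Ets core CCGGAAG, the E-box CACGTG, the AP-1 site TGANTCA, the cAMP response element TGACGTCA and the Lef/Tcf site CTTTGAA, and no matches overlapped in these 4 windows. The Hs3st3b1 window held 2 GC boxes and 2 CCAAT boxes, the Galnt6 window held 3 GC boxes, and the Gcnt1 window held 2 TATA boxes and 2 CCAAT boxes. None of the 8 motifs matched in the Galnt10 window. Among all 32851 windows, 35.7% held a GC box, 37.4% a CCAAT box, 13.6% a TATA box, 8.86% an Ets core, 7.15% an E-box, 7.81% an AP-1 site, 1.79% a cAMP response element and 5.14% a Lef/Tcf site. The Gcnt1 window differed from the other 3 in base composition, with 40.7% G or C and 2 CpG dinucleotides, against 63.7% and 23 for Hs3st3b1, 66.0% and 28 for Galnt10, and 73.7% and 31 for Galnt6. The medians over all windows were 52.7% and 7. These matches describe the sequence and do not show that a factor binds.

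The libraries held 11308285 to 14620148 counts each, and the WT libraries (12.8 to 14.6 M) were somewhat deeper than the GLC libraries (11.3 to 12.8 M). Markers of CD4 T cells fitted the label: all 12 passed the filter on low counts and together reached 5637 to 6361 CPM (counts scaled to a common library size by TMM) in WT and 5301 to 5984 CPM in GLC. Traces of other cells were present. The 12 B cell markers summed to 79.3 to 727 CPM in WT and 215 to 1093 CPM in GLC, with mean levels of 264 CPM for Igkc and 197 CPM for Ighm, the immunoglobulin chains, and at most 6.87 CPM for each of the other 10. The 10 plasma cell markers summed to 181 to 583 and 345 to 960 CPM, the 12 macrophage markers to 4.16 to 6.81 and 4.62 to 7.14 CPM, and the 2 CD8 genes to 8.23 to 13.5 and 10.54 to 14.4 CPM. In WT replicate 4 the mean log2 CPM of the plasma cell list was only 2.20, so its genes contributed unevenly to the sum. No marker of these lists was at 0 in every library. Counts of WT replicate 1 stood apart over the whole table: its chi-square (per degree of freedom) against each of the other 10 libraries was 33.1 to 62.8, where no pair of the others exceeded 23.7. Without it the log2 fold changes, GLC minus WT, were -0.35 for Hs3st3b1, -0.40 for Galnt10, 0.00 for Galnt1, -0.19 for Galnt6, -0.02 for C1galt1, -0.01 for C1galt1c1, 0.29 for St3gal1 and 0.68 for Gcnt1. Pggt1b itself was at 33.3 to 44.6 CPM in WT and 37.9 to 57.2 CPM in GLC, which checks nothing, because the labels place the deletion in macrophages. GLC replicate 9 had 633 counts in 4 Y-linked genes and 11 counts of Xist, where the other libraries had at most 1 and at least 2992.

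Galnt6 was by far the most abundant of the 10 transcripts and Galnt3 was close to absent. Galnt2 also had few counts, but whether its transcript is scarce is uncertain because of the overlapping gene described below. On a scale that allows genes to be compared, CPM per kilobase of annotated exons, Galnt6 averaged 112 ± 13.8 (SD, n = 11) over all libraries and Hs3st3b1 23.6 ± 3.81. Galnt1 followed at 21.0 ± 1.29, C1galt1 at 12.4 ± 0.889, Galnt10 at 12.1 ± 2.36, C1galt1c1 at 9.39 ± 2.24, St3gal1 at 8.03 ± 1.41 and Gcnt1 at 3.20 ± 1.53, all in CPM per kilobase. Galnt6 exceeded Galnt1 by 4.23 to 6.84 times within each of the 11 libraries. Hs3st3b1 and Galnt1, in contrast, could not be ordered over all libraries, since Hs3st3b1 was the higher in 8 of 11 libraries. The ratio of Hs3st3b1 to Galnt1 per kilobase was 1.082 to 1.453 in WT and 0.865 to 1.198 in GLC. C1galt1 and Galnt10, Galnt10 and C1galt1c1, and C1galt1c1 and St3gal1 also overlapped, with the first of each pair higher in 7, 9 and 7 libraries. Galnt1 lay above Galnt10, and St3gal1 above Gcnt1, in all 11.

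**Figure D1:**
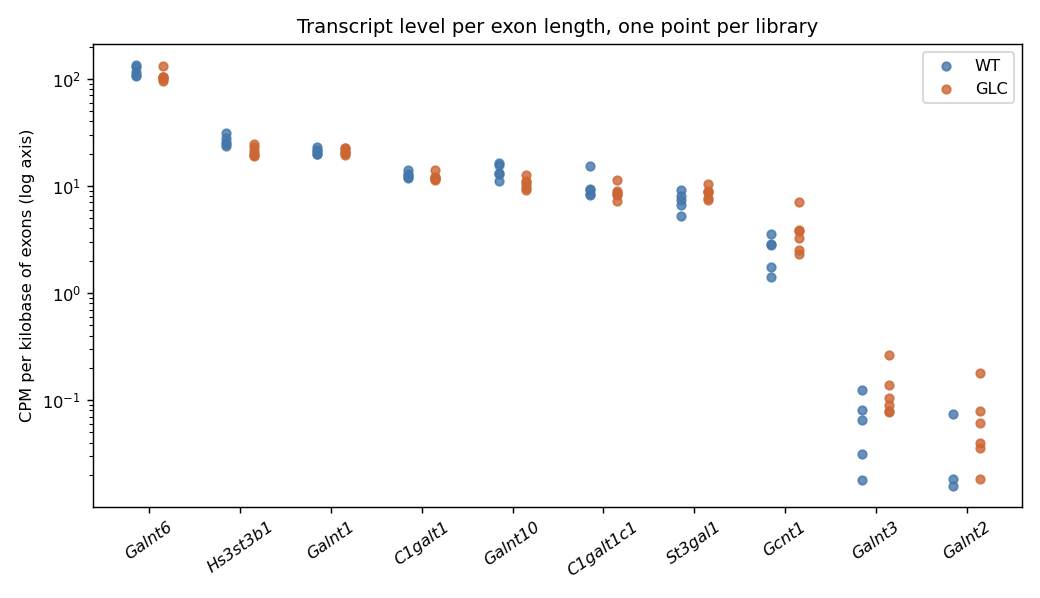
Level of each of the 10 genes in CPM per kilobase of exons on a log axis, 1 point per library, WT in blue and GLC in orange, genes ordered by their mean. Galnt6 stands above 96 in every library, 7 genes lie between 1.40 and 31.4, and Galnt3 and Galnt2 lie below 0.3; 2 WT libraries with 0 counts of Galnt2 cannot be drawn.

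The low value of Galnt2 (ENSMUSG00000089704, chromosome 8, positions 124231391 to 124345724, GRCm38) is uncertain. Of its 4282 exon bases in GENCODE M21, 3854 (90.0%) are shared on the same strand with exons of Gm20388, a longer overlapping gene, and how the counting treated reads that fit both genes is not given in the sources used here. Galnt2 had 1, 0, 0, 4 and 1 counts in WT replicates 1 to 5 and between 1 and 10 in the GLC libraries, and Gm20388 had 0 counts in all 11. Galnt3 (ENSMUSG00000026994, chromosome 2, positions 66082766 to 66124994), whose exons overlap no other gene, had 7, 4, 5, 1 and 2 counts in WT replicates 1 to 5 and between 4 and 15 in GLC. Both fell under the filter on low counts and were left out of the fit, so 8 of the 10 genes have a fold change. The antisense gene Galnt6os shares 11.4% of the exon bases of Galnt6 and had at most 1 count in any library; the strand setting is not given, so reads of the 2 cannot be told apart there.

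Hs3st3b1 (ENSMUSG00000070407, chromosome 11, positions 63885792 to 63922290, minus strand) was at 126, 154, 115, 137 and 121 CPM in WT replicates 1 to 5. In GLC it ranged from 93.3 CPM in replicate 12 over a median of 100.2 to 120 CPM in replicate 11. The groups overlapped by a narrow margin: 5 of 6 GLC libraries lay below the lowest WT library, and 4 of 5 WT libraries above the highest GLC library. The means were 131 ± 15.3 CPM (SD, n = 5) and 104 ± 10.7 CPM (SD, n = 6), a log2 fold change of -0.33 (SE 0.09, 95% interval -0.52 to -0.15) for GLC minus WT. With 1 library left out it lay between -0.37 (without GLC replicate 11) and -0.27 (without WT replicate 2). With the mean of the naive T cell list as a covariate it was -0.14 (SE 0.10). The naive list was itself lower in GLC (mean log2 CPM 8.40 against 8.54), and in bulk RNA fewer cells of a kind and less RNA per cell cannot be told apart.

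No other 3-O-sulfotransferase gene came near this level. Of the 7 in the list of heparan sulfate genes, Hs3st3a1 was the next at 0.498 CPM per kilobase against 23.6 for Hs3st3b1, and it is named after its values were seen; the paralogs are similar in sequence, so how reads were split between them is uncertain. The whole heparan sulfate list (25 genes, 11 tested, 8 without a count in any library) showed 0 genes called in either direction by edgeR's quasi-likelihood test, with 5 log2 fold changes above 0, 6 below, and a median of -0.04. Over all 12404 genes tested the median was -0.000160. After Hs3st3b1 the genes with the highest level per exon length were Extl3, a glycosyltransferase that starts the heparan sulfate chain, at 14.0 CPM per kilobase, and Ndst2, which removes acetyl groups and adds sulfate to the chain, at 9.58. Their log2 fold changes were 0.03 (SE 0.06) and 0.02 (SE 0.09). Ext1, a subunit of the chain polymerase, averaged 47.9 ± 7.12 CPM in the WT libraries against 40.6 ± 3.76 in GLC (-0.24 in log2, SE 0.10) and is named after its values were seen, as the other gene of this list besides Hs3st3b1 with an unadjusted p under 0.05 in edgeR. The 7 genes that build the linker between protein and glycosaminoglycan were all measured, with 3 above 0, 4 below, a median of -0.02 and 0 called. B4galt7, Xylt2 and B3gat3, 3 transferases of that linker, had log2 fold changes of -0.06 (SE 0.09), -0.10 (SE 0.10) and 0.03 (SE 0.09).

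Proteoglycan core proteins carry glycosaminoglycan chains, and which kind each core carries in these cells was not measured. They were led by Srgn, the serglycin core of secretory granules, at 376 CPM per kilobase. Next came Tgfbr3, the betaglycan coreceptor of TGF-beta, at 16.1 and Gpc1, a glypican, at 7.03. Of 7 tested cores, 4 were above 0, 3 below and 0 called, with a median of 0.08. The log2 fold changes of Srgn, Tgfbr3 and Gpc1 were -0.07 (SE 0.14), -0.18 (SE 0.09) and 0.08 (SE 0.13). Sdc4, syndecan-4, with a mean of 8.85 ± 2.06 CPM for WT against 13.4 ± 5.35 for GLC, was the 1 core with an unadjusted p under 0.05 (log2 fold change 0.60, SE 0.24) and is named after its values were seen.

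Among the initiators of O-glycosylation, Galnt10 differed most between the groups. Galnt10 (ENSMUSG00000020520, chromosome 11, positions 57645442 to 57787514) was at 78.9, 97.0, 76.4, 94.2 and 65.8 CPM in WT replicates 1 to 5. In GLC it ranged from 54.3 CPM in replicate 10 over a median of 63.0 to 75.4 CPM in replicate 12. All 6 GLC libraries lay below the WT mean and 4 below the lowest WT library, yet the groups overlapped, since WT replicate 5 lay below 2 GLC libraries. The means were 82.5 ± 13.01 CPM (SD, n = 5) and 63.1 ± 7.61 CPM (SD, n = 6), which on the log2 scale is a difference of -0.39 (SE 0.11, 95% interval -0.61 to -0.16). This was between -0.45 (without WT replicate 5) and -0.32 (without WT replicate 2) with 1 library left out, and -0.28 when the mean of either the B cell list (SE 0.09) or the naive list (SE 0.15) was a covariate.

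Galnt6 (ENSMUSG00000037280, chromosome 15, positions 100691813 to 100729376), the dominant initiator, was at 416, 504, 411, 520 and 445 CPM in WT replicates 1 to 5. In GLC it ranged from 373 CPM in replicate 6 over a median of 399 to 513 CPM in replicate 11. Replicate 11 was alone: the other 5 GLC libraries, at 373 to 402 CPM, all lay below the lowest WT library. GLC minus WT was -0.16 in log2 (SE 0.09, 95% interval -0.35 to 0.04), -0.22 without GLC replicate 11, and 0.03 (SE 0.10) with the naive list as a covariate. Galnt1 (ENSMUSG00000000420, chromosome 18, positions 24205344 to 24286818) averaged 116 ± 7.58 CPM (SD, n = 5) for WT, from 108 to 126, against 116 ± 7.42 CPM (SD, n = 6) for GLC, from 107 to 126. Its log2 fold change was 0.00 with a 95% interval of -0.14 to 0.14, and its coefficient of variation within groups, 6.46%, was the smallest among the 8 fitted genes. The ratio of Galnt10 to Galnt1 per kilobase was 0.482 to 0.803 in WT and 0.423 to 0.628 in GLC, and the ratio of Galnt6 to Galnt1 was 5.03 to 6.84 in WT and 4.23 to 6.48 in GLC.

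Of the 19 genes of the initiation list, 8 passed the filter and 4 had no count in any library. Galnt7, an initiator that prefers peptides already carrying GalNAc, came next in level after Galnt6 and Galnt1, at 13.1 CPM per kilobase, and its log2 fold change was -0.07 (SE 0.08). The 8 had 3 values above 0, 5 below and a median of -0.05, and 0 were called.

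The core 1 pair differed little between the groups. C1galt1 (ENSMUSG00000042460, chromosome 6, positions 7844842 to 7875687) was at 86.2, 77.97, 76.4, 71.4 and 74.4 CPM in WT replicates 1 to 5 and at 69.6 to 84.8 CPM in GLC, around a median of 73.3. The highest GLC library, replicate 10, lay among the WT values, as did most of the others. GLC minus WT was -0.06 in log2 (SE 0.07, 95% interval -0.20 to 0.09), and -0.02 without WT replicate 1. Its X-linked chaperone C1galt1c1 (ENSMUSG00000048970, chromosome X, positions 38630785 to 38635087) was at 22.3, 13.6, 12.2, 13.3 and 11.8 CPM in WT and at 10.54 to 16.5 CPM in GLC, around a median of 12.3. WT replicate 1 stood apart here too, and without it the log2 fold change went from -0.20 (SE 0.17) to -0.01. GLC replicate 9, the library with Y-linked counts, was at 12.2 CPM of C1galt1c1, inside the range of the others. The ratio of C1galt1 to C1galt1c1 per kilobase was 0.920 to 1.495 in WT and 1.001 to 1.602 in GLC.

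The genes that compete for core 1 had higher means in GLC, St3gal1 narrowly and Gcnt1 more widely. St3gal1 (ENSMUSG00000013846, chromosome 15, positions 67102875 to 67176830) was at 54.6, 45.5, 62.7, 35.7 and 50.3 CPM in WT replicates 1 to 5, and in GLC at 50.6 CPM in replicate 9, a median of 60.1 and 71.6 CPM in replicate 78. Each GLC library lay above the WT mean of 49.8 ± 10.1 CPM (SD, n = 5), but the groups overlapped: 3 of 5 WT libraries lay below the lowest GLC library, while WT replicate 3 lay above all GLC libraries except replicate 78. GLC minus WT was 0.25 in log2 (SE 0.12, 95% interval -0.01 to 0.52). With 1 library left out it lay between 0.16 (without WT replicate 4) and 0.36 (without WT replicate 3). It was 0.14 (SE 0.10) when the mean of the B cell list was a covariate and 0.19 (SE 0.17) with the naive list.

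Gcnt1 (ENSMUSG00000038843, chromosome 19, positions 17326141 to 17372844) was the most variable of the 8, with 5.11 times between its lowest and highest library and a within-group coefficient of variation of 41.7%, against a median of 13.7% for the 500 genes nearest to it in level. It was at 16.6, 10.0, 20.5, 8.04 and 16.0 CPM in WT replicates 1 to 5, and in GLC at 13.2 CPM in replicate 11, a median of 20.3 and 41.1 CPM in replicate 78. The groups overlapped between 13.2 and 20.5 CPM: WT replicates 2 and 4 lay below every GLC library, GLC replicates 6, 10 and 78 above every WT library, and the pooled library, replicate 78, was far above the rest. The means were 14.2 ± 5.10 CPM (SD, n = 5) and 21.96 ± 10.1 CPM (SD, n = 6), a log2 fold change of 0.63 (SE 0.29, 95% interval 0.01 to 1.24). With 1 library left out it lay between 0.35 (without GLC replicate 78) and 0.80 (without WT replicate 3). It was 0.28 (SE 0.19) when the B cell list was a covariate and -0.06 (SE 0.31) when the naive list was. Several lists had higher means in GLC as Gcnt1 did. The mean log2 CPM of the B cell list was 3.12 in GLC against 2.70 in WT, with 3 of its 6 tested genes above 0 and 3 below. That of the regulatory list was 5.99 against 5.63 (15 of 15 genes above 0), of the effector and memory list 5.41 against 5.15 (17 of 20), of the plasma cell list 5.53 against 4.31 (7 of 8) and of the natural killer list 1.91 against 1.51 (3 of 4 tested). In these lists 0 genes were called by edgeR, and the part of the regulatory, effector and memory, plasma cell and natural killer lists in the Gcnt1 difference was not tested. Per kilobase, St3gal1 exceeded Gcnt1 by 2.57 to 3.81 times in WT and by 1.47 to 3.89 times in GLC.

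**Figure D2:**
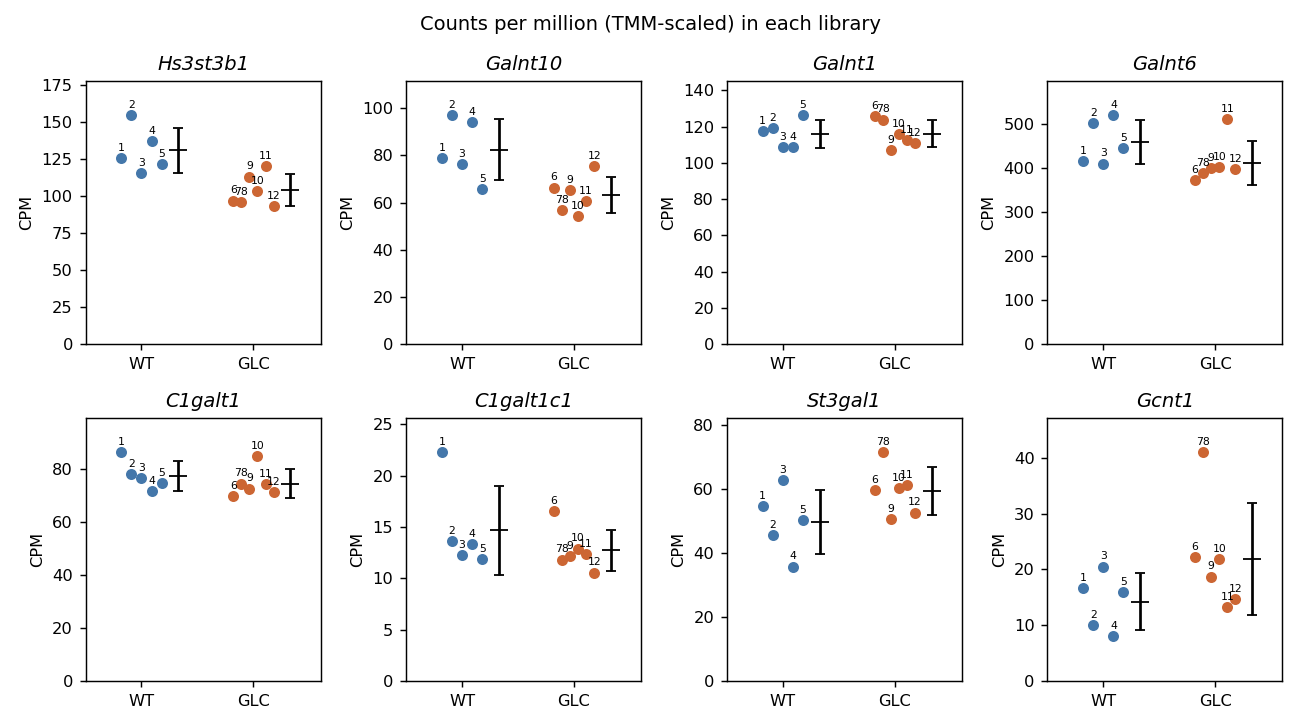
CPM of the 8 fitted genes in each library, with the replicate number above each point and the mean and SD of each group as a bar beside the points. Hs3st3b1 and Galnt10 sit lower in GLC with a narrow overlap, Galnt1 does not differ in mean, and Gcnt1 spreads from 8.04 to 41.1 CPM with GLC replicate 78 at the top.

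These differences did not pass over all genes. In edgeR's quasi-likelihood test, 0 of the 8 fitted genes and 0 of all 12404 (0%) were called at an adjusted p of 0.05, while 563 of all genes had an unadjusted p under 0.05, 341 of them higher and 222 lower in GLC. Of the 8 there were 3, Hs3st3b1 and Galnt10 lower and Gcnt1 higher, where the share over all genes was 4.54% in either direction and 1.79% for lower in GLC. Since the genes were chosen with this comparison known, nothing is read from that count. DESeq2 called 2 of all genes, both higher, and limma-voom 0; by either, 0 of the 8 were called, and Hs3st3b1 and Galnt10 but not Gcnt1 had an unadjusted p under 0.05. For 0 of the 8 were the groups without overlap, against 0.331% of all genes in either direction and 0.177% lower in GLC.

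The other O-glycan and donor genes lay on both sides of 0 without a call. The extension and capping list had 12 of 23 genes tested, 8 above 0, 4 below, a median of 0.15 and 0 called, and its highest levels per kilobase belonged to C1galt1, C1galt1c1 and St3gal1. Sugar and sulfate donors had 18 of 20 tested, 10 above 0, 8 below and a median of 0.03. Ugp2, which makes UDP-glucose, had a log2 fold change of -0.03 (SE 0.07), Cmas, which activates sialic acid, of -0.05 (SE 0.08), and Slc35b3, a transporter of the sulfate donor, of -0.09 (SE 0.06). In this list Gfpt1, the entry enzyme of the hexosamine pathway, had an unadjusted p under 0.05 in edgeR at 0.17 (SE 0.08), and is named after its values were seen. Mucin-type carrier proteins had 10 of 11 tested, with 5 above 0, 5 below and a median of 0.02. Spn, the CD43 sialomucin, and Ptprc, the CD45 phosphatase, were at 165 and 103 CPM per kilobase, with log2 fold changes of 0.04 (SE 0.09) and 0.06 (SE 0.09).

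Neighbouring glycan pathways held no call either. Chondroitin sulfate genes had 12 tested, 9 above 0, 3 below and a median of 0.03, with Chpf2, Chst12 and Chpf at 0.01 (SE 0.08), 0.00 (SE 0.10) and 0.12 (SE 0.10). N-glycan genes had 12 tested, 8 above 0, 4 below and a median of 0.05, with the galactosyltransferase B4galt1 at -0.04 (SE 0.07) and Mgat2 at 0.04 (SE 0.09). St6gal1, which adds sialic acid to N-glycans, averaged 327 ± 32.8 CPM for WT against 293 ± 21.1 for GLC (-0.16 in log2, SE 0.08), and with Fut8, the core fucosyltransferase, at 0.27 (SE 0.12), it had an unadjusted p under 0.05 in edgeR. Fut8 is named after its values were seen. Enzymes of other O-linked sugars had 11 tested, 4 above 0, 7 below and a median of -0.07, with Lfng, a modifier of Notch, at -0.14 (SE 0.12), Oga at -0.07 (SE 0.07) and Ogt at 0.05 (SE 0.13), the last 2 being the enzymes that remove and add O-GlcNAc. In each of these 3 lists, the donor list and the carrier list 0 genes were called by edgeR.

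**Figure D3:**
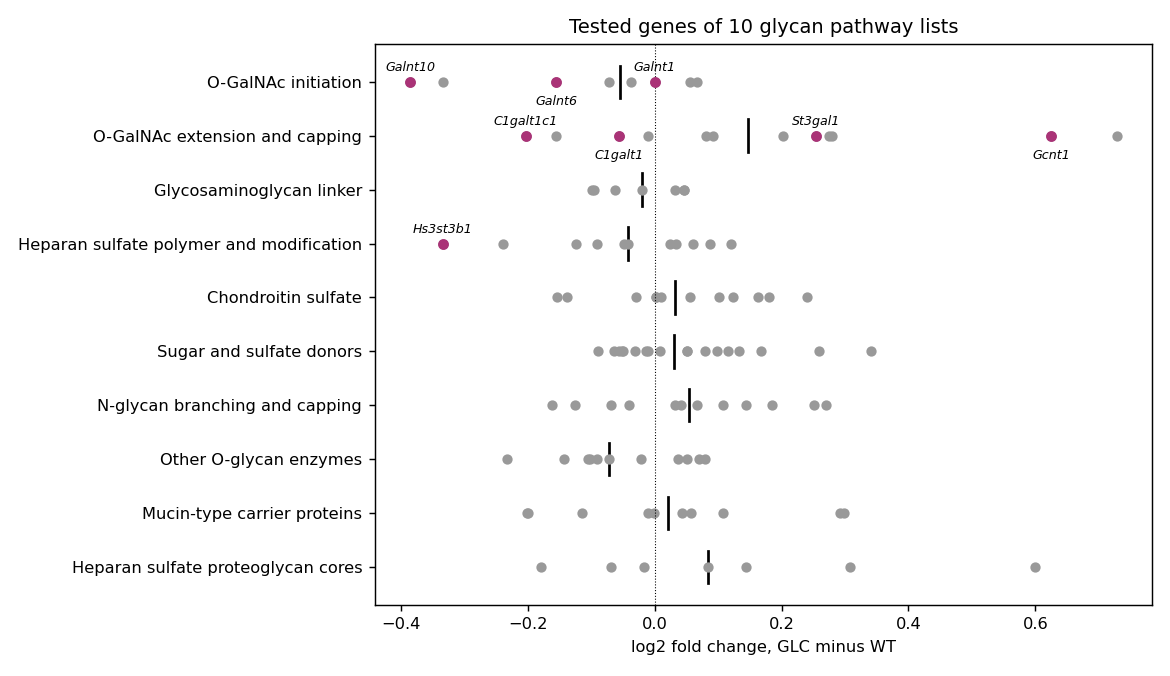
Log2 fold change, GLC minus WT, of each tested gene of 10 glycan pathway lists, with the genes of this report in purple and named, other genes in grey, and the list median as a vertical bar. List medians lie between -0.07 and 0.15, and Galnt10, Hs3st3b1 and Gcnt1 lie toward the ends of their lists.

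Whether the genes vary between mice with the state of the T cells was examined inside the groups, which leaves the difference between genotypes out. Log2 CPM of each gene and the mean log2 CPM of each of 5 lists (naive state, effector and memory, regulatory, early activation, B cell) were centred on their group means, and 50 pairs of the 10 genes and 5 lists were tested over 11 libraries by shuffling within groups. Gcnt1 rose with the regulatory T cell list, with Pearson r = 0.911 (permutation p = 0.00036, adjusted p = 0.018) and Spearman rho = 0.909 (permutation p = 0.00038, adjusted p = 0.019). By Pearson it was the 1 pair of 50 past the threshold, and 15 had an unadjusted p under 0.05. Within groups r was 0.859 over the WT and 0.947 over the GLC libraries, and without the 2 libraries farthest from the median of the list r was 0.857 (permutation p = 0.00302, adjusted p = 0.151). With 1 library left out r stayed between 0.851 and 0.955. The adjusted permutation p was then above the threshold without WT replicate 1 (0.0735), WT replicate 3 (0.0735), WT replicate 5 (0.081), GLC replicate 6 (0.0579), GLC replicate 78 (0.0626) or GLC replicate 9 (0.0665).

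Hs3st3b1 and Galnt6 had r below 0 with the same list, past the threshold for none of their pairs by Pearson and for 1 pair each by Spearman. Hs3st3b1 had r = 0.752 with the naive list (rho = 0.709, permutation p = 0.00477 and 0.0221, adjusted p = 0.0552 and 0.123), -0.787 with the effector and memory list (rho = -0.846, permutation p = 0.00682 and 0.00246, adjusted p = 0.0568 and 0.049) and -0.804 with the regulatory list (rho = -0.746, permutation p = 0.00552 and 0.0184, adjusted p = 0.0552 and 0.115), where the first value of each pair is for Pearson and the second for Spearman. Without the 2 libraries farthest from each list's median these r were 0.682, -0.725 and -0.757. Galnt6 had r = -0.776 with the regulatory list (rho = -0.855, permutation p = 0.0135 and 0.00392, adjusted p = 0.0845 and 0.049), and -0.891 without the 2 farthest libraries. St3gal1 had r = 0.819 with the effector and memory list (rho = 0.782, permutation p = 0.00318 and 0.0126, adjusted p = 0.0552 and 0.105), and 0.833 without the 2 farthest libraries.

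Gcnt1 also varied with the B cell list, which passed by Spearman and not by Pearson. It had r = 0.831 (rho = 0.873, permutation p = 0.00454 and 0.00304, adjusted p = 0.0552 and 0.049), and 0.723 without the 2 farthest libraries. With the effector and memory list Gcnt1 had a similar r of 0.827, which passed by neither measure (rho = 0.791, permutation p = 0.00796 and 0.0110, adjusted p = 0.0569 and 0.105). Without the 2 libraries farthest from that list's median r was 0.6685. The lists were not independent of each other, though 0 of 10 list pairs passed after adjustment (4 had an unadjusted p under 0.05): the regulatory list had r = 0.827 with the effector and memory list (rho = 0.818, permutation p = 0.0051 and 0.00746, adjusted p = 0.051 for r over 10 list pairs) and 0.700 with the B cell list (rho = 0.827, permutation p = 0.0169 and 0.00564, adjusted p = 0.0564 for r). The regulatory and the effector and memory lists share 1 gene, Itgae, which adds to their r. Which of these lists Gcnt1 follows was not tested. Galnt10, Galnt1, Galnt2, Galnt3, C1galt1 and C1galt1c1 had no pair with an adjusted permutation p under 0.1 by either measure.

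**Figure D4:**
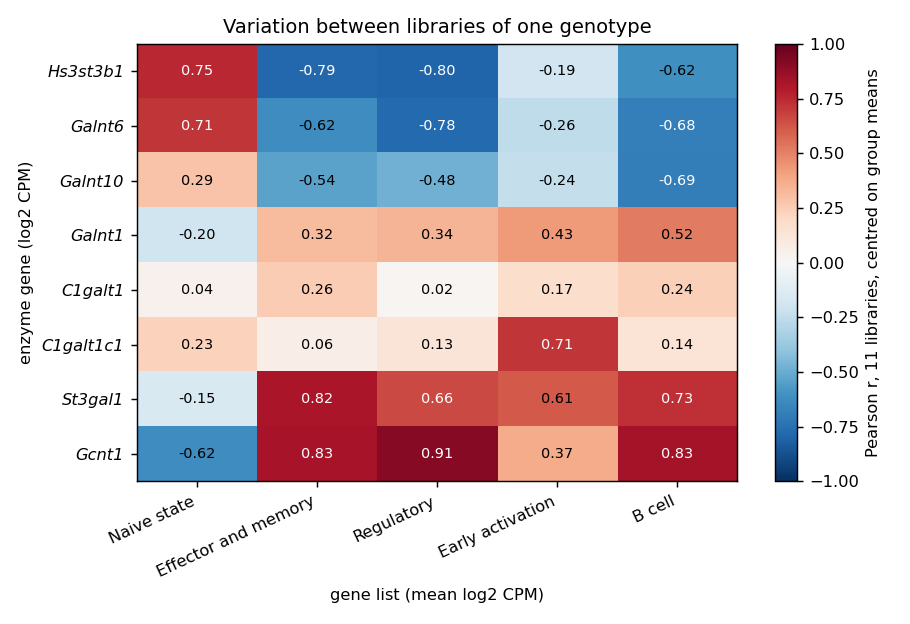
Pearson r between log2 CPM of each of 8 genes (rows) and the mean log2 CPM of 5 gene lists (columns), both centred on group means, over 11 libraries. Hs3st3b1, Galnt6 and Galnt10 are negative with the effector and memory, regulatory and B cell lists. The other genes are positive with them, Gcnt1 and St3gal1 most strongly. The value for Gcnt1 with the regulatory list, 0.91, is the 1 that passed by Pearson.

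**Figure D5:**
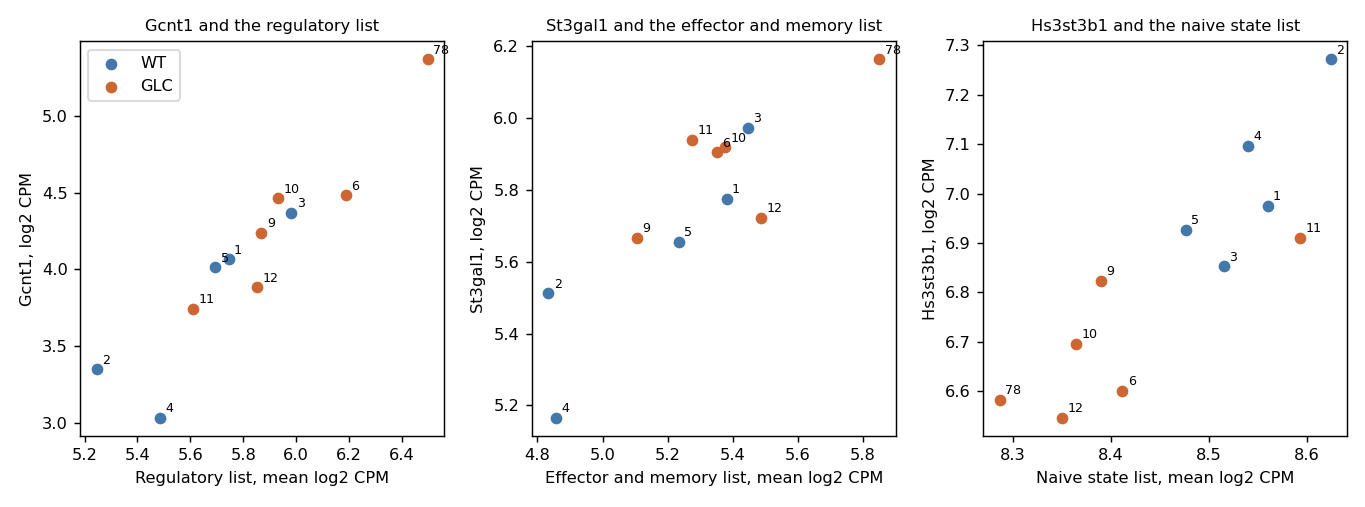
Log2 CPM of Gcnt1, St3gal1 and Hs3st3b1 against the mean log2 CPM of the regulatory, effector and memory, and naive lists, 1 point per library with its replicate number, WT in blue and GLC in orange, values not centred. GLC replicate 78 is highest for Gcnt1 and for the regulatory list, and WT replicates 2 and 4 are lowest for both.

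Between the genes themselves, 28 pairs were compared in the same way and 0 passed, with 5 at an unadjusted p under 0.05. The 2 closest pairs were St3gal1 with Gcnt1 (r = 0.815, rho = 0.764, permutation p = 0.00275 and 0.0134, adjusted p = 0.0763 for r) and Hs3st3b1 with Galnt6 (r = 0.798, rho = 0.791, permutation p = 0.00545 and 0.00991, adjusted p = 0.0763 for r). Without the 2 libraries farthest in the first gene, r was 0.605 and 0.839. Hs3st3b1 and Galnt10, which both had lower means in GLC, were not closely related inside the groups (r = 0.334, rho = 0.291, permutation p = 0.353 and 0.419, adjusted p = 0.659 for r).

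The genes with the pattern most like Hs3st3b1, among 8208 named genes with a mean log2 CPM of at least 3 and over the same 11 centred libraries, were Trim32, a ubiquitin ligase (r = 0.887, rho = 0.764), Phf13, a chromatin reader (r = 0.882, rho = 0.873), and Pknox1, a homeobox factor (r = 0.878, rho = 0.90). For Galnt10 they were Tomm40, the channel of the mitochondrial outer membrane translocase (r = 0.948, rho = 0.964), Vrk3, of the vaccinia-related kinase family (r = 0.8998, rho = 0.90), and Ndufa11, a subunit of respiratory complex I (r = 0.891, rho = 0.927). These r are the top values out of 8208 and describe likeness only, with no test.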

How the data were processed

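RNA from lymph node CD4+ cells was sequenced in 11 libraries. The values are raw counts per Ensembl gene as the authors deposited them, without scaling. Tools named for making them, per the submitters' processing notes, are STAR and featureCounts, with build mm10. Their versions, the annotation and the strand and multi-mapping options were not given in the sources used here. Symbols, positions and exon lengths were read from GENCODE M21 on GRCm38 (mm10), where 55230 of 55471 identifiers were found. All 11 columns were matched to samples by title. Counts of library pairs differed by a chi-square per degree of freedom of 9.48 to 62.8, so no library was a copy; the 10 highest values were those of WT replicate 1. Nothing states that libraries came from separate cultures, apart from the pooled one, so p-values measure the spread between these libraries.

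Counts were fitted in R 4.3.3 with edgeR 4.0.16 (filterByExpr, 12404 genes, TMM, glmQLFit and glmQLFTest, two-sided, Benjamini-Hochberg over all genes, threshold 0.05). CPM use scaled library sizes; log2 CPM add a prior count of 2. SEs were derived from the F statistic. Permutation tests were two-sided with 100000 shuffles within groups, adjusted over all pairs. Both steps were tested on simulated data. In 3 simulations of the fit, each with 200 genes changed, 16% of genes changed 1.25 fold were called, 52.7% at 1.5 fold and 78.7% at 2 fold. These rates depend on the number of genes changed, which is unknown for the real comparison. As alternatives, scaling was by RLE or upper quartile, the fit was made robust, and there were 2 other filters, DESeq2 1.42.0, limma-voom (limma 3.58.1), 2 covariates, a threshold of 0.1, libraries left out and, for correlations, a prior count of 0.5, no centring and Spearman's rho. The genes and the 22 lists were chosen with earlier results of these data known. Genes named are the 10, the 3 of highest level per exon length in each of 10 pathway lists, and the 3 most like Hs3st3b1 and Galnt10; others are marked, and some genes that the rule names are not reported here. Promoter windows came from RefSeq. Figures were drawn with matplotlib 3.10.9.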

Additional observations from a re-analysis of the deposited data

Results flagged for a closer look

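In 7 of 20 groups of libraries (10 genes, WT and GLC) the highest library stood apart from the rest of its group by Dixon's criterion at the 95% level; chance alone gives about 1 in 20. Over all 12404 genes tested the share was 6.69% of groups, and over the 8 fitted genes 4 of 16 groups; the other 3 are groups of Galnt2 and Galnt3, at 0 to 15 counts. Nothing particular to these genes is read from the count. The Galnt6 value of GLC replicate 11 was 512.6 CPM, where the other GLC libraries were at 373 to 402 CPM. The Gcnt1 value of GLC replicate 78, the pooled library, was 41.1 CPM against 13.2 to 22.2 CPM in the others, and Galnt3 in the same library was at 1.152 CPM from 15 counts. The C1galt1c1 value of WT replicate 1 was 22.3 CPM against 11.8 to 13.6 CPM, and the C1galt1 value of GLC replicate 10 was 84.8 CPM against 69.6 to 74.3 CPM. Galnt2 was at 0.315 CPM (4 counts) in WT replicate 4 and at 0.770 CPM (10 counts) in GLC replicate 12.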

How the results depend on the processing

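The comparison of GLC with WT called 0 genes higher and 0 lower in edgeR; it called 1 gene higher with no filter on low counts and 2 higher with DESeq2, none of them among the 10 described, and 0 with each library left out in turn. The count of gene and list pairs that vary together was 1, against 17 without centring on group means, 4 with Spearman's rho, 0 without the 2 libraries farthest from the list median, and 0 to 5 with 1 library left out; the cause was not tested. Of 168 recomputed fold changes of the 8 fitted genes, 165 moved by less than 1 SD between libraries, and 3 moved by more, all with the naive list as covariate: Hs3st3b1 to -0.14, Galnt6 to 0.03 and Gcnt1 to -0.06. The sign of Galnt1, at 0.00, depended on the setting. No paired analysis was possible because the groups share no replicate numbers. Low counts leave Galnt2 and Galnt3 without a fold change. Over all genes the 95% interval around a log2 value had a median extent of ±0.25.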
